A study of Mus musculus with 12 samples.

Results

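Promoter methylation was followed at 10 genes of the epithelial barrier in the colon of mice with induced Dnmt3b and of control mice. The genes, listed by symbol, were the claudins Cldn3, Cldn4, Cldn5 and Cldn7, the other tight junction genes Ocln and Tjp1, the adhesion genes Cdh1 and Epcam, and the keratins Krt8 and Krt18. They were 10 of the 12098 genes that appear in any library, and each was represented by 1 RefSeq promoter. The cells were colon epithelium of C57BL/6 mice fed chow. In 3 induced mice the DNA methyltransferase Dnmt3b was switched on by doxycycline, drunk with the water at 0.5 g/l over 3 months with fresh water every 3 days, and 3 control mice drank regular water. DNA of each mouse was cut with MspI, an enzyme that cuts at CCGG whether or not the inner CpG is methylated, and gave a short-fragment (40 to 120 nt) and a long-fragment (120 to 220 nt) library for reduced representation bisulfite sequencing. Libraries of a group with the same number were taken to come from the same mouse. The labels give neither age nor sex, and do not say which promoter drove the transgene or whether control mice carried it, so the drug and the induction cannot be told apart. A value is the mean methylation level of the CpGs read at a promoter, in percent, and the read depth behind it is unknown. It is not a measure of expression, so it does not show how much Dnmt3b or junction protein the cells made.

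Epithelial cells are sealed to each other by tight junctions, strands of claudins and occludin that are tied to the actin skeleton through ZO scaffold proteins. Below them lie adherens junctions built on E-cadherin, and keratin filaments brace the cell from within. Methylation of a CpG-rich promoter is usually found together with a silent gene, and Dnmt3b is one of the enzymes that place new methyl groups. Claudins differ in tissue: Cldn3, Cldn4 and Cldn7 are claudins of gut epithelium, whereas Cldn5 is best known from the endothelium of blood vessels.

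The promoters on which the results turn are shown first, from 250 bases before to 50 bases after the RefSeq start of transcription (assembly GRCm38.p6). No source used here gives the build or the promoter window behind the deposited levels, and these 300 bases need not be the ones measured. For Cldn5 they were not, by the stated fragment sizes. Its window holds no MspI site, so a fragment spanning it is too long for either library. The windows of Cldn4 and Cldn3 hold 1 site each, with too many bases on both sides for a short fragment. By the stated sizes the short-fragment levels of Cldn4 and Cldn3 thus came from CpGs outside these windows, which for Cldn4 is not certain. Capitals mark the CpGs, the only kind of site that counts towards a level. Cldn4 and Cldn5 are shown because their methylation rose, Cldn3 because it lies next to Cldn4 and stayed near 0, Epcam because it was at or near 0 in every library, and Krt18 and Krt8 because they are neighbours with unlike levels.
Cldn4, chr5:134946885-134947184, minus strand: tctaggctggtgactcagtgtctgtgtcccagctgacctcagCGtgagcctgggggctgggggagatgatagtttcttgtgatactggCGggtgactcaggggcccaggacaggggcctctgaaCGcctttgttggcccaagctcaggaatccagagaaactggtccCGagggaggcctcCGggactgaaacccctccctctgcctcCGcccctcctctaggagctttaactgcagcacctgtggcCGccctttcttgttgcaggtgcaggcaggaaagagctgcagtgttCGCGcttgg
Cldn5, chr16:18776597-18776896, plus strand: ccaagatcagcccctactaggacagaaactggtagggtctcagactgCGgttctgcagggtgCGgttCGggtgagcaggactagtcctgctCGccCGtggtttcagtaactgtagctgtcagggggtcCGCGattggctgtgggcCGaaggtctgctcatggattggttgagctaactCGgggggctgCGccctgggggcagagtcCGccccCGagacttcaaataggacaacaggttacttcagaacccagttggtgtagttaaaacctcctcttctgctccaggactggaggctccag
Cldn3, chr5:134985964-134986263, plus strand: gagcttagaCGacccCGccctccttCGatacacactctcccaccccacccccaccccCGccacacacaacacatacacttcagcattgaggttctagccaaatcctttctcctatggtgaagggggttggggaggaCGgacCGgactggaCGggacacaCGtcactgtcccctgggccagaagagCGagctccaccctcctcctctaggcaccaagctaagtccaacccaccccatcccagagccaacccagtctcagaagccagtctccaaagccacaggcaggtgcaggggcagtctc
Epcam, chr17:87635729-87636028, plus strand: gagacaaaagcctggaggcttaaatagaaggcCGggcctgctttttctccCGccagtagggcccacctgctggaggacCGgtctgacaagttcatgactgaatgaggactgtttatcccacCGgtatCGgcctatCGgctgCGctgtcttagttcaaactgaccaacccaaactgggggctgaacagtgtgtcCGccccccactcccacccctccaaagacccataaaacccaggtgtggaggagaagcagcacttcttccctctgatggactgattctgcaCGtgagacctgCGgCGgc
Krt18, chr15:102027966-102028265, plus strand: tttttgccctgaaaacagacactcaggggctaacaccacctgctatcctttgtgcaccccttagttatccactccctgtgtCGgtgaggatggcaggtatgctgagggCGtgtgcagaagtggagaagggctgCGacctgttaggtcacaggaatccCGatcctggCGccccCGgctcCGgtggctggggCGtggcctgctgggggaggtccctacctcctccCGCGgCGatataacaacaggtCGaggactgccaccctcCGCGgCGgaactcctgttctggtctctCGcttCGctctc
Krt8, chr15:102004293-102004592, minus strand: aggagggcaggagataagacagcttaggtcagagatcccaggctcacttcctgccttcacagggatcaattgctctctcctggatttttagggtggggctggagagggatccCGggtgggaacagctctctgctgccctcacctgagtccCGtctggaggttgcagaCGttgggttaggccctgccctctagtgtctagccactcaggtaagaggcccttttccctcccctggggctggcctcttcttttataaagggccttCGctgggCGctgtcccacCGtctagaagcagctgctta

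All but Krt8 of these windows held more CpGs than most promoters. Cldn3 and Cldn4 each held 9 CpGs, Epcam 11, Cldn5 12, Krt18 17 and Krt8 6, where the median over 32851 RefSeq promoters of the same length was 7. Tjp1, which encodes the scaffold ZO-1, held the most CpGs of the 9 genes matched, with 31, more than in 89.4% of promoters. Cldn7 and Ocln have a pair of RefSeq starts each in this table, with 7 and 17 CpGs for Cldn7 and 17 and 24 for Ocln, and Cdh1 was not matched. The MspI site CCGG, a palindrome that reads the same on both strands and holds a CpG, occurred 3 times in the Epcam window and 5 times in that of Tjp1. It occurred once in the windows of Cldn3, Cldn4 and Krt8, and not in that of Cldn5. At least 1 such site was present in 52.8% of all promoters. Across genes with a single promoter in the table, those with few CpGs more often gained methylation among short fragments: 43.6% of 521 genes with 0 to 9 CpGs rose, against 23.6% of 1810 genes with 30 or more. Cldn4, which rose, and Cldn3, which did not pass, held the same number of CpGs. By the stated fragment sizes, that count is of windows from which their short-fragment levels did not come, though for Cldn4 this is not certain.

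Methylation rose at Cldn4 and Cldn5 and did not pass the test at any of the other genes in either fraction. A gene was tested where it was listed in all 6 libraries of a fraction, which held for 8 of the 10 genes among short and 7 among long fragments. Among short fragments 2 of the 8 rose and none fell, where 27.6% of 10027 tested genes rose and 0.0798% fell. Among long fragments 1 of the 7 rose and none fell, where 23.2% of 6127 tested genes rose and 0.0163% fell. Rises and falls are calls of limma at an adjusted p under 0.05 over all genes of the fraction. The median change was -0.015 points for the 8 genes and 0.50 points for all genes among short fragments, and 1.25 and 0.943 points among long fragments. Both means lay under 5% at 6 of the 8 genes and at 5 of the 7, and at 63.9% and 57.6% of all tested genes.

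**Figure D1:**
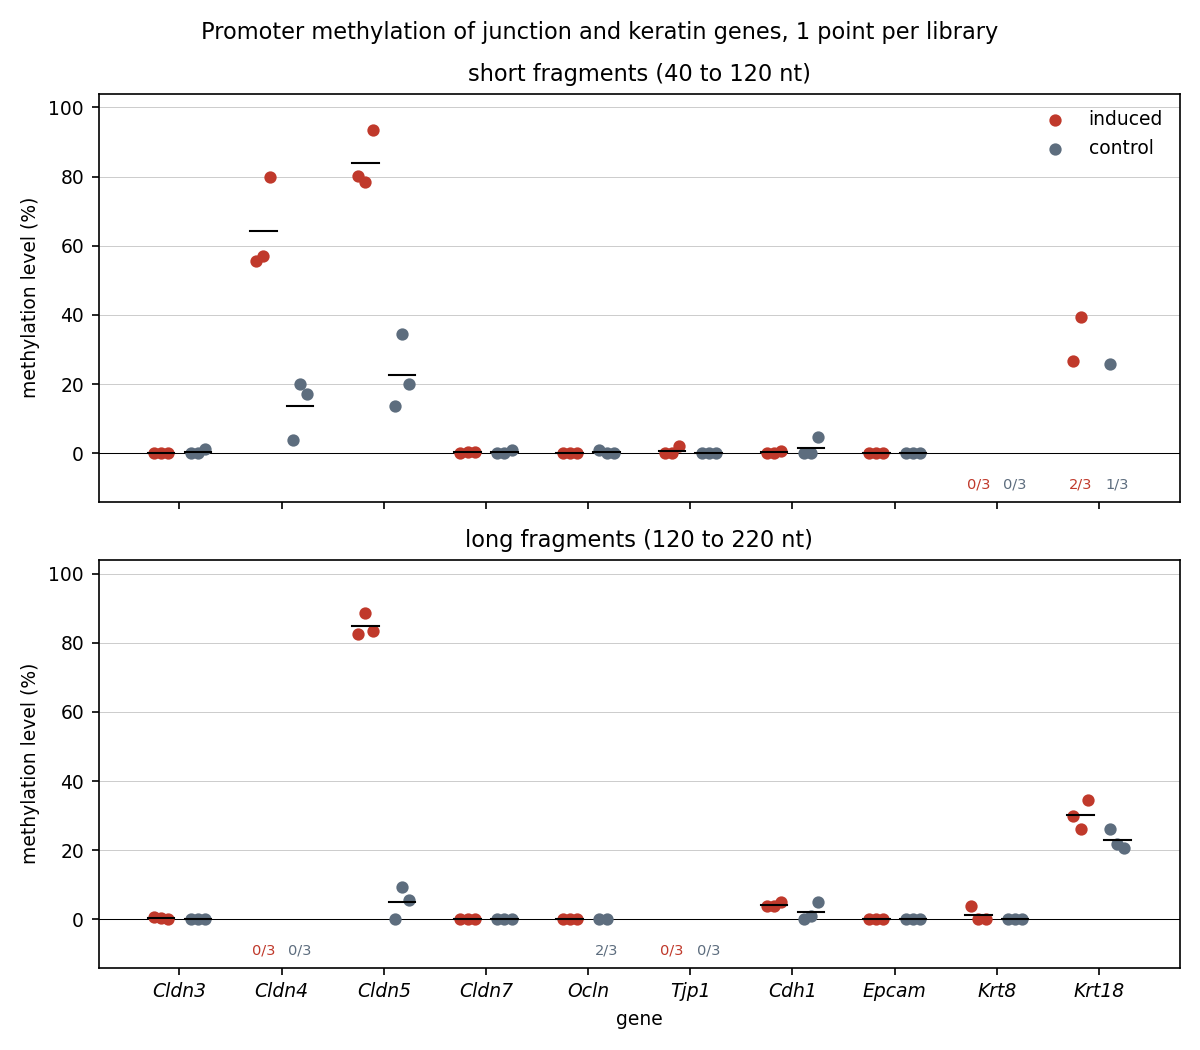
Methylation level (y axis, percent) of the 10 genes (x axis) in each library, with short fragments in the upper and long fragments in the lower panel, induced mice in red and control mice in grey. Each point is 1 mouse, black lines are means of 3 mice, and 0/3, 1/3 or 2/3 marks groups in which the gene was listed in that many libraries. Cldn5 stands apart by group in both panels and Cldn4 in the upper one, Krt18 is at an intermediate level in both groups, and the other genes lie near 0.

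Cldn5, a claudin of vascular endothelium, had the largest rise of the junction and keratin genes tested in each fraction and their highest mean level in induced mice. Among short fragments (promoter NM_013805, Gene ID 12741) it was at 80.0%, 78.4% and 93.5% in induced mice 1, 2 and 3, against 13.8%, 34.4% and 19.9% in control mice 1, 2 and 3. The groups did not overlap, and even the lowest induced mouse was far above the highest control mouse. The means were 84.0% ± 8.28 in induced and 22.7% ± 10.6 in control mice (SD, n = 3 each), a difference of 61.3 points with a 95% interval of 41.8 to 80.8 (limma, adjusted p = 0.00393). Larger rises were seen at 755 of the 10027 genes, or 7.53%.

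Among long fragments the contrast at Cldn5 was wider. It was at 82.6%, 88.6% and 83.4% in induced mice 1, 2 and 3, and at 0%, 9.51% and 5.71% in control mice 1, 2 and 3. The means were 84.8% ± 3.28 in induced and 5.07% ± 4.79 in control mice (SD, n = 3 each), a difference of 79.8 points with a 95% interval of 71.3 to 88.3 (limma, adjusted p = 0.000496). Only 32 of the 6127 genes, 0.522%, rose by more. The call of Cldn5 held in both fractions whichever library was left out, with adjusted p between 0.00866 and 0.0257 among short and between 0.00192 and 0.00801 among long fragments.

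The same mice can be compared across fragment sizes, which read different CpGs of the promoter. In induced mice Cldn5 was at a like level in both libraries of a mouse: the long-fragment level was 2.55 and 10.2 points higher in induced mice 1 and 2 and lower in induced mouse 3, at -10.1 points. In control mice it was lower among long fragments in every mouse, by -13.8, -24.9 and -14.2 points for mice 1, 2 and 3. The change with induction was 18.5 points larger among long fragments, with a 95% interval of 0.662 to 36.3, and did not pass when adjusted over the 5309 genes present in all 12 libraries (limma interaction with mouse as a random block, adjusted p = 0.32). In that fit 4.71% of genes passed, and none of the 5 junction genes in it (Cldn3, Cldn5, Cldn7, Cdh1 and Epcam) did. At an unadjusted p under 0.05, 1 of the 5 passed, Cldn5, where 14.5% of the 5309 genes did.

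**Figure D2:**
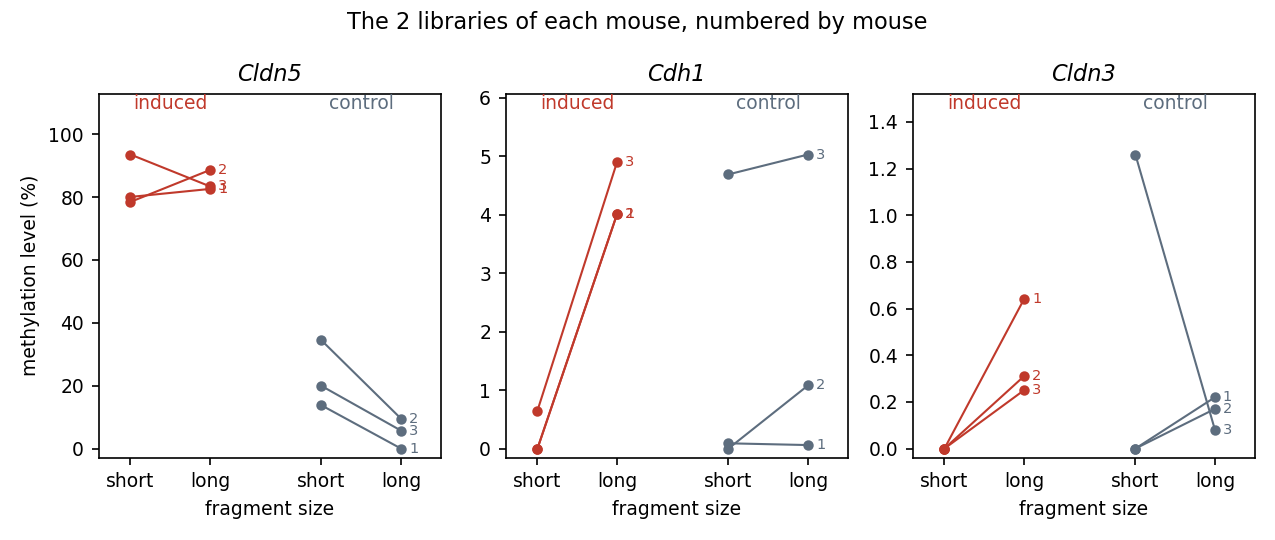
Methylation level (y axis, percent, scaled for each gene) of Cldn5, Cdh1 and Cldn3 in the short- and long-fragment library of each mouse (x axis), joined by a line and numbered by mouse, with induced mice in red and control mice in grey. The Cldn5 lines of control mice all fall towards long fragments, and at Cdh1 control mouse 3 stands apart from the other control mice at both sizes.

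The genes whose levels were most like those of Cldn5 over the 6 libraries, by root mean square difference, were Tssk3 and 1700125D06Rik (5.63 points each) and Tcf20 (6.09 points) among short fragments. Tssk3 and 1700125D06Rik are listed with the same means, 81.5% in induced and 19.2% in control mice. Among long fragments they were Lmx1b (3.46 points), Cpeb1 (4.52 points) and Inha (4.75 points). Within 10 points of Cldn5 lay 33 of 10026 other genes among short and 136 of 6126 among long fragments.

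Cldn4, a claudin of gut and other simple epithelia that serves as a receptor for Clostridium perfringens enterotoxin, was listed in all short-fragment and in no long-fragment library. It was at 55.7%, 57.0% and 79.9% in induced mice 1, 2 and 3, against 3.94%, 19.9% and 17.2% in control mice 1, 2 and 3 (NM_009903, Gene ID 12740). The groups did not overlap, and induced mouse 3 was the highest, as it was for Cldn5 in the same libraries. The means were 64.2% ± 13.6 in induced and 13.7% ± 8.54 in control mice (SD, n = 3 each), a difference of 50.5 points with a 95% interval of 27.3 to 73.8 (limma, adjusted p = 0.0138). The call was narrowly lost without control mouse 1, where the adjusted p was 0.0537 and the change 45.7 points. It was lost also without control mouse 3, where they were 0.05397 and 52.3 points. Without control mouse 2 (adjusted p = 0.0446) or any one of the induced mice it held.

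Non-overlap was common in these data. Every induced mouse was higher than every control mouse at 39.5% of the genes tested among short fragments and at 38.2% among long fragments. Of the junction and keratin genes this held for Cldn4 and Cldn5 among short fragments, 2 of 8, and for Cldn3, Cldn5 and Krt18 among long fragments, 3 of 7. With 3 mice against 3, p was 0.10 for each of these 5 comparisons by a two-sided exact permutation test, which can give no smaller value.

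**Figure D3:**
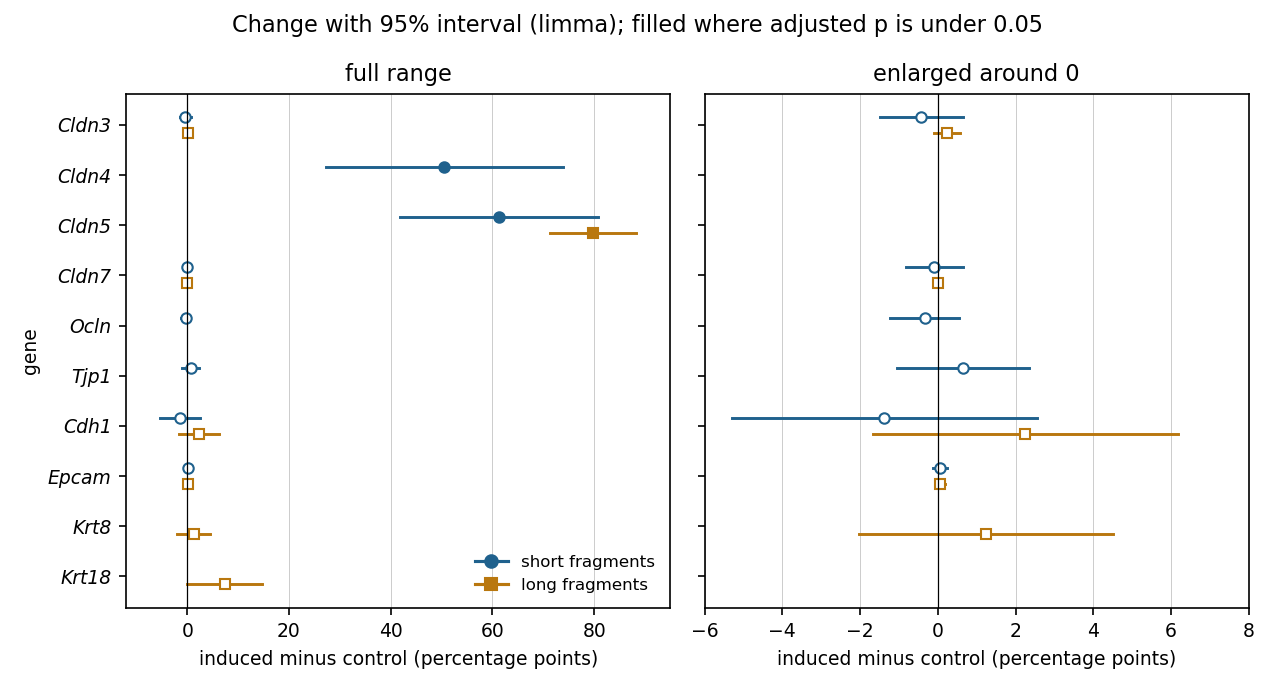
Difference between induced and control means (x axis, percentage points) for each gene (y axis) with its 95% interval from limma, for short (circles) and long fragments (squares), with filled symbols where the adjusted p was under 0.05. The left panel holds all tested comparisons, and the right panel enlarges those whose interval ends under 8 points, which leaves out Cldn4, Cldn5 and Krt18. The intervals of Cldn4 and Cldn5 lie far above 0, and those of the other genes include 0.

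Cldn3, the neighbour of Cldn4 in the RefSeq gene order and likewise an epithelial claudin, stayed near 0. Among short fragments it was at 0% in all 3 induced mice, and at 0%, 0% and 1.26% in control mice 1, 2 and 3 (NM_009902, Gene ID 12739). Among long fragments it was at 0.64%, 0.31% and 0.25% in induced mice 1, 2 and 3, against 0.22%, 0.17% and 0.08% in control mice 1, 2 and 3. The long-fragment groups did not overlap, but the difference was 0.24 points with a 95% interval of -0.0972 to 0.584 (limma, adjusted p = 0.322). At Cldn7, a claudin of the lateral membrane of gut epithelium, every long-fragment library was at 0%, and short-fragment levels were 0% to 0.4% in induced and 0% to 0.83% in control mice.

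The genes on either side of the 2 claudins that rose were mostly low. On the far side of Cldn4 lies Wbscr27, at 0.0767% ± 0.0802 in induced and 0% in control mice among short and at 6.14% ± 4.09 and 0% among long fragments (SD, n = 3 each; limma adjusted p = 0.512 and 0.154). On the far side of Cldn3, Abhd11, a mitochondrial hydrolase gene, rose among short fragments to 13.6% ± 0.975 in induced mice, against 2.84% ± 2.23 in control mice (SD, n = 3 each; limma adjusted p = 0.00435). In long-fragment libraries Abhd11 averaged 0% in induced and 0.137% in control mice. Next to Cldn5 lie Sept5, a septin gene, with a short-fragment mean of 0.04% in induced and 0.203% in control mice, and Cdc45l, a DNA replication gene, with 2.15% in induced and 0% in control mice. Neither passed.

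Beside the unmethylated genes the neighbours were of both kinds. Slc2a4, the gene of the insulin-responsive glucose transporter GLUT4 and a neighbour of Cldn7, rose among short fragments to 21.5% ± 7.74 in induced mice, against 0.917% ± 0.831 in control mice (SD, n = 3 each; limma adjusted p = 0.0248). It lost that call without any one of the control mice or induced mouse 2, with adjusted p up to 0.0966. Tarsl2, a neighbour of Tjp1, was at an intermediate level in both groups, 52.97% in induced and 48.2% in control mice. Marveld2, the tricellulin gene next to Ocln, had means of 0.42% in induced and 0.0267% in control mice among short fragments. Neither Tarsl2 nor Marveld2 passed.

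Ocln and Tjp1 encode occludin, a strand protein of the tight junction, and ZO-1, the scaffold beneath it. Ocln was at 0% to 0.04% in induced and 0% to 1.06% in control mice among short fragments, where the highest value was that of control mouse 1. It was listed in 5 of the 6 long-fragment libraries, at 0% to 0.25% in the 3 induced mice and at 0.22% and 0% in control mice 1 and 2. Tjp1 was listed among short fragments only, at 0.01%, 0.03% and 2.05% in induced mice 1, 2 and 3 and at 0.04%, 0.05% and 0.04% in control mice 1, 2 and 3. The one level above 1% was that of induced mouse 3, without which the difference was -0.0233 points. The 95% intervals of the short-fragment change were -1.23 to 0.554 points for Ocln and -1.05 to 2.35 points for Tjp1.

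Cdh1 encodes E-cadherin, the adhesion receptor of epithelial adherens junctions, whose promoter is methylated in some human carcinomas. Among short fragments it was at 0%, 0% and 0.65% in induced mice 1, 2 and 3, against 0.09%, 0% and 4.69% in control mice 1, 2 and 3 (NM_009864, Gene ID 12550). Among long fragments it was at 4.01%, 4.01% and 4.90% in induced mice 1, 2 and 3, against 0.06%, 1.08% and 5.03% in control mice 1, 2 and 3. Control mouse 3 thus had the highest Cdh1 level of its group at both fragment sizes, and the highest of all 6 mice. With it, neither change passed: -1.38 points with a 95% interval of -5.30 to 2.55 among short and 2.25 points with an interval of -1.67 to 6.17 among long fragments (limma, adjusted p = 0.59 and 0.44). Without control mouse 3 the long-fragment change was 3.74 points and passed (limma, adjusted p = 0.0302), and the short-fragment change was 0.172 points (adjusted p = 0.74). The difference between the 2 changes then passed as well, at 3.565 points (limma interaction, adjusted p = 0.0276), against 3.63 points (adjusted p = 0.497) with all mice. In either case the long-fragment levels of Cdh1 stayed under 6% in every mouse.

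The gene next to Cdh1, Cdh3, which encodes P-cadherin, a cadherin of basal and placental epithelium, had other levels. Among short fragments it rose to 51.5% ± 7.92 in induced mice, against 6.57% ± 6.77 in control mice (SD, n = 3 each; limma adjusted p = 0.0047). Its long-fragment means were 34.7% ± 15.2 in induced and 0.997% ± 1.73 in control mice, which missed the threshold (adjusted p = 0.0546).

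Epcam, an adhesion molecule used as a surface marker of epithelial cells, was listed in all 12 libraries and never above 0.18%. It was at 0% in all 6 control libraries. Induced mice 1, 2 and 3 were at 0%, 0% and 0.18% among short and at 0.08%, 0% and 0.09% among long fragments. The 95% intervals of the change were -0.128 to 0.248 points among short and -0.0678 to 0.181 points among long fragments. Centring the libraries on a common median, which lowered every change by 0.396 points among short and 0.502 points among long fragments, turned both differences of Epcam and the long-fragment difference of Cldn3 negative, and those of Epcam then passed (limma, adjusted p = 0.0227 among short and 0.0077 among long fragments).

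The keratins Krt8 and Krt18, partners in the filaments of simple epithelia and neighbours in the genome, differed in level. Krt8 was listed among long fragments only, at 3.86%, 0% and 0% in induced mice 1, 2 and 3 and at 0.12%, 0% and 0% in control mice 1, 2 and 3. The difference of 1.25 points, with a 95% interval of -2.03 to 4.52, came from induced mouse 1. Without that mouse it was -0.04 points.

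Krt18 was the one gene at an intermediate level in both groups. Among long fragments it was at 29.9%, 26.2% and 34.4% in induced mice 1, 2 and 3, against 26.1%, 21.7% and 20.6% in control mice 1, 2 and 3 (NM_010664, Gene ID 16668). The groups did not overlap, but the lowest induced mouse stood 0.12 points above the highest control mouse. The means were 30.2% ± 4.10 in induced and 22.8% ± 2.91 in control mice (SD, n = 3 each). Their difference of 7.38 points had a 95% interval of -0.00226 to 14.8 and did not pass (limma, adjusted p = 0.163). Among short fragments it was listed in 3 libraries, at 26.7% and 39.5% in induced mice 1 and 3 and at 25.8% in control mouse 3. Control levels of 10% to 30%, where Cldn4 and Cldn5 among short and Krt18 among long fragments lie, were found at 594 and 461 genes of the 2 fractions, and the median change of these genes was 24.5 and 23.7 points.

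Other genes of the same structures were read for comparison. Over all tested genes 27.6% rose among short and 23.2% among long fragments. The lists were chosen with earlier results of these data known. Of 22 other claudin names 9 were tested among short fragments, of which 2 rose and none fell, with a median change of 11.3 points. Cldn1, a barrier claudin of skin, rose to 55.5% ± 18.9 in induced mice, against 0% in all 3 control mice (limma, adjusted p = 0.0174). Cldn11, the claudin of myelin and of Sertoli cells, rose to 48.8% ± 12.7 in induced mice, against 7.94% ± 11.7 in control mice (limma, adjusted p = 0.0364; SD, n = 3 each). Both lost their short-fragment calls when 1 library was left out, Cldn1 without any control mouse or induced mouse 1 and Cldn11 without mouse 1 or 3 of either group, with adjusted p up to 0.0731 and 0.132. On the log2 scale Cldn11 lost that call too (adjusted p = 0.0741). Among long fragments 1 of 4 rose, Cldn11, to 59.0% ± 6.86 in induced mice, against 4.70% ± 3.03 in control mice (SD, n = 3 each; limma adjusted p = 0.00188).

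Of 28 tight junction scaffold and polarity genes tested among short fragments 7 rose and none fell, where 27.6% of all genes rose. Their median change was 0.198 points, and both means lay under 5% at 22 of them. The junctional adhesion molecule genes Jam2 and Jam3 rose to 68.7% ± 10.6 and 69.6% ± 3.05 in induced mice, against 2.72% ± 2.74 and 3.89% ± 1.52 in control mice. Mpdz, a scaffold with many PDZ domains, rose to 53.4% ± 7.30 in induced mice, against 1.01% ± 0.677 in control mice (SD, n = 3 each; limma adjusted p = 0.00163 for Jam2, 0.00013 for Jam3 and 0.001 for Mpdz). Among long fragments, where 23.2% of all genes rose, 3 of 16 did so. They were Mpdz, Jam3 and the polarity gene Pard6g, with differences of 62.3, 49.9 and 38.1 points. Jam3 lost that call without any one of 5 of the 6 libraries, the exception being induced mouse 1, with adjusted p up to 0.139.

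Adherens junction and desmosome genes gave 4 rises of 19 among short fragments and none of 15 among long fragments. The shares over all tested genes were 27.6% and 23.2%. After Cdh3, the largest short-fragment rises were those of Ppl, which encodes the cornified envelope protein periplakin, to 18.8% ± 5.10 in induced mice, against 2.89% ± 1.30 in control mice, and of Pvrl1, the nectin-1 gene, to 4.62% ± 1.50 in induced mice, against 0.09% ± 0.123 in control mice (SD, n = 3 each; limma adjusted p = 0.0158 and 0.0161). Both lost the call without any single control mouse, with adjusted p up to 0.0693 and 0.0703. Pvrl1 lost it also without induced mouse 2 (adjusted p = 0.057) and in the fit over all 4 groups (adjusted p = 0.0515). Both means lay under 5% at 17 of the 19 genes among short and at 11 of the 15 among long fragments. Jup, Vcl and Perp had mean levels of 0.04% or less in both groups and both fractions. Others were higher, such as Pkp3 among long fragments, at 34.2% in induced and 37.2% in control mice, which did not pass. Of 31 other keratin names only Krt10 and Krt76 were tested, among short fragments, and both were already methylated in control mice. Krt10, a keratin of differentiated epidermis, rose to 90.8% ± 3.39 in induced mice, against 67.997% ± 4.73 in control mice (SD, n = 3 each; limma adjusted p = 0.00651).

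Genes of the wider epithelial programme gave 2 rises of 12 among short and none of 8 among long fragments, with median changes of 0.212 and 0.297 points. Over all tested genes the shares that rose were 27.6% and 23.2%. The transcription factor gene Ovol1 rose to 1.51% in induced mice, against 0.113% in control mice (limma, adjusted p = 0.00517), a call that was lost in the fit over all 4 groups (adjusted p = 0.682).

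**Figure D4:**
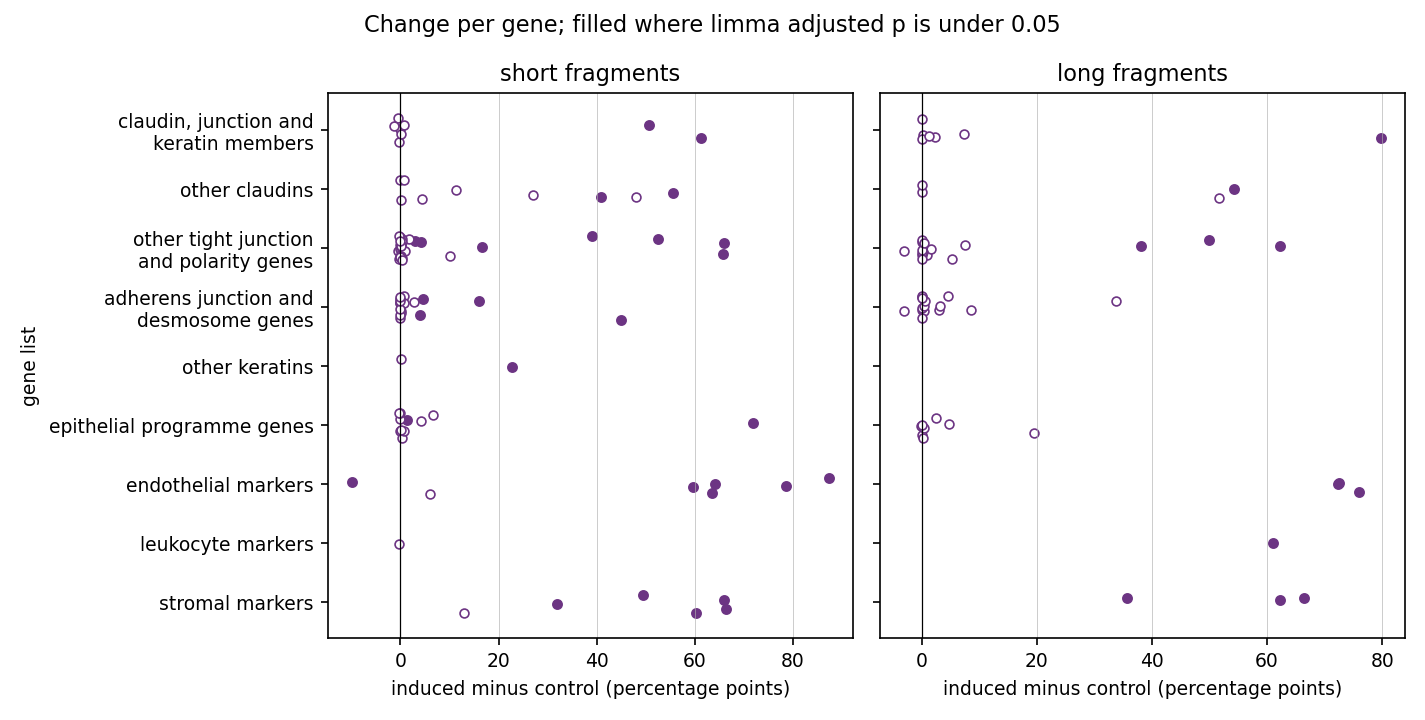
Difference between induced and control means (x axis, percentage points) for each tested gene of 9 lists (y axis), with short fragments on the left and long fragments on the right; filled points passed limma at an adjusted p under 0.05. Most junction, desmosome and epithelial programme genes sit near 0, whereas the tested endothelial and stromal markers lie mostly above 30 points.

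Markers of other cell types were read at the same time, since the isolate could hold vessel, blood or stromal cells. Of 18 endothelial marker names 7 were tested among short fragments, of which 5 rose and 1 fell, and all 3 tested among long fragments rose. Over all tested genes 27.6% rose and 0.0798% fell among short fragments, and 23.2% rose among long fragments. The mean level of the list was 61.2% to 67.8% in induced and 14.6% to 16.5% in control mice among short fragments, and 73.3% to 84.7% in induced and 1.86% to 8.76% in control mice among long fragments. Short-fragment control means lay under 5% at 5 of the 7 markers. Eng was already at 85.1% in control mice, against 91.1% in induced mice, and did not pass (limma, adjusted p = 0.563). Cldn5, itself a gene of endothelium, also rose in both fractions, with a short-fragment control mean of 22.7%. Among short fragments Esam, an endothelial adhesion molecule, Ramp2, an adrenomedullin co-receptor, and Sox17, a vascular transcription factor, rose by 87.3, 78.5 and 64.1 points, and Rasip1, which acts in vessel tube formation, fell to 0.94% in induced mice, against 10.8% in control mice (limma, adjusted p = 0.0162). Stromal markers gave 5 rises of 6 and 3 of 3, with means of 49.7% to 64.9% in induced and 7.97% to 9.51% in control mice among short fragments, and of 35.8% to 71.95% in induced and 1.10% to 2.25% in control mice among long fragments. The long-fragment calls, those of Des, Pdgfra and Vim, were lost without any one of the control mice or induced mouse 2, and that of Des also without induced mouse 3, with adjusted p up to 0.142. Of the leukocyte markers 1 was tested in each fraction: Lck was at 0% to 0.34% in induced and 0% to 1.11% in control mice among short fragments, and Coro1a rose among long fragments, with 68.9% to 82.3% in induced and 8.05% to 17.9% in control mice. In each library at most 1 of the 7 endothelial markers and 2 of the 6 stromal markers tested among short fragments were at 0. The part of other cells in the levels of Cldn4, Cldn5 or Krt18 was not tested.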

How the data were processed

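Per the file headers, the authors deposited 1 table per library with the mean CpG methylation fraction (0 to 1) per gene and per RefSeq promoter. Per the labels' protocols, MspI fragments of 2 gel bands were treated with bisulfite, with extra conversion cycles, PCR-amplified and read on an Illumina Genome Analyzer II. No source used here gives the aligner, the build, the window that counts as a promoter, any coverage minimum or the conversion rate. The tables hold no read counts, so depth and counting error are unknown. A short-fragment library lists 10358 to 10838 genes and a long-fragment library 7278 to 8108. No pair of libraries of a fraction shared more than 2.53% of its values above 0.

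Fractions were converted to percent. Genes listed in all 6 libraries of a fraction were fitted with limma 3.58.1 (lmFit and eBayes, R 4.3.3), induced against control, with Benjamini-Hochberg adjustment over all genes of the fraction and a threshold of 0.05. The interaction of induction and fragment size was fitted over all 12 libraries, mouse being a random block (consensus correlation 0.0674). The fits were tested on simulated data. Exact permutation tests used scipy 1.17.1, and figures matplotlib 3.10.9. The genes described and the lists were chosen with earlier results of these data known. Beyond the 10 genes, up to 3 genes per list and fraction with the largest differences past the threshold, the genes next to the 10, and the 3 genes nearest in profile to the one with the largest change were named. Symbols are those of the files, and list names were also matched by RefSeq synonyms. A few genes that this rule names are not reported here. Neighbours follow the RefSeq order of protein-coding genes, and promoter sequences are RefSeq's, both of GRCm38.p6.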

Additional observations from a re-analysis of the deposited data

How the results depend on the processing

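Counts over all genes moved with the settings. Centring each library on its median difference gave 5212 changed genes (2844 higher and 2368 lower) among short and 3566 (1628 higher and 1938 lower) among long fragments, against 2773 (2765 and 8) and 1422 (1421 and 1) without it. It left 3 of the 7 tested genes changed among long fragments, Cldn5 higher and Epcam (-0.445 points) and Cldn7 (-0.502 points) lower. It gave Cldn3 -0.258 points there, which did not pass (limma, adjusted p = 0.174). Among short fragments 3 of the 8 tested genes then passed, Cldn4 and Cldn5 higher and Epcam lower (-0.336 points, adjusted p = 0.0227). The shift is that of the centring itself. One fit over all 4 groups, on genes in all 12 libraries, called 1575 genes among short fragments and 1 of the 5 junction genes it held. It could not hold Cldn4. On the arcsine scale the long minus short change of Epcam was 0.00528 radians, of the other sign.

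Leaving out 1 library at a time gave 2227 to 3029 genes among short and 885 to 1528 among long fragments. Of the 10 genes, those tested in a fraction gave 1 to 2 calls, and the difference between fractions gave 0 to 1. Over these omissions changes ranged in points as follows: Cdh1 from -2.17 to 0.172, Ocln from -0.517 to 0.0133, Tjp1 from -0.0233 to 0.997 and Cldn7 from -0.245 to 0.17 among short fragments, Krt8 from -0.04 to 1.89 among long fragments, and the long minus short change from -0.17 to 0.245 for Cldn7 and from -0.045 to 0.04 for Epcam. For the 10 genes 227 alternative values kept their sign and their side of the threshold, 13 changed sign, among them Epcam in both centred fractions, which also passed, and of the rest 3 gained and 2 lost the call.

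Mouse numbers are shared by induced and control mice, which are separate animals. Deviations of same-numbered mice correlated at 0.0736, 0.00398 and -0.0498 among short and at 0.001, 0.0366 and 0.0247 among long fragments. Mice of different number gave -0.0772 to 0.0838 among short and -0.0311 to 0.0145 among long fragments. With so few mice these values cannot show whether the numbers pair animals by litter, cage or batch. With the replicate block 2114 genes passed among short and 652 among long fragments. Cldn4 (adjusted p = 0.0433) and Cldn5 (0.0428 among short and 0.0157 among long fragments) kept their calls. Elsewhere the block ended the short-fragment calls of Cldn1 (adjusted p = 0.0722), Cldn11 (0.195), Ovol1 (0.0694), Ppl (0.0714), Slc2a4 (0.081) and Pvrl1 (0.069), and the long-fragment calls of Jam3 (0.139), Des (0.117), Pdgfra (0.0845) and Vim (0.0878).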
